A study of Mus musculus with 11 samples.

Results

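The 5 mouse CD8 T cell libraries that were all sorted as Tcf7-YFP high at day 9 were compared by ATAC-seq, which uses a transposase to read out where chromatin is open. In 3 of them the cells had been sorted as low at day 3 (low_to_high), and in 2 as high at day 3 (high_to_high). The members are these 5 libraries of the 11 in the series, chosen by their labels. All libraries are of spleen CD8 T cells, and the labels name the sorting marker Tcf7-YFP, a fluorescent reporter of Tcf7. Between its sorts at day 3 and day 9, each day 9 group was put back into culture. The other libraries are 3 of cells low at both sorts (low_to_low), and 1 each of naive (CD44-, CD62L+, Tcf7-YFP+) and antigen-experienced (CD44+, CD62L+, Tcf7-YFP+) splenocytes and of effector cells after 3 days of ex vivo activation. The labels give no strain, age or number of animals, and do not say whether replicates were separate animals or cultures, so the spread behind each p-value may be technical. The comparison asks whether cells that regained the YFP-high state carry the same open chromatin as cells that had it at both sorts.

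Tcf7 encodes TCF-1, a DNA-binding factor that is high in naive and memory CD8 T cells and is turned down in most effector cells. Open chromatin marks promoters and distal elements at which such factors can bind. A region that stays open or closed after a change of state is one form in which a cell could keep a record of an earlier state.

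The 5 libraries held 20.8 to 59.97 M tags and 46454 to 62581 peaks, with 9.01 to 10.2% of tags inside peaks. High_to_high replicate 2 was the deepest, at 59.97 M tags against 25.8 M for replicate 1 and 20.8 to 40.5 M for the low_to_high libraries. Its peak window was 136 bp, against 172 bp in the other 4. Where leaving it out moved the value of a single named region by over 1.5 times, that value is given too. Regions at the T cell genes Cd8a, Cd8b1, Cd3e, Cd3d, Thy1 and Cd2 were called in all 5 libraries. Cd3g was the exception, with 1 and 2 regions called in high_to_high and 0, 1 and 2 in low_to_high libraries. The strongest Cd8a region held a normalized tag count (tags per 10 M tags of the library) of 29.0 to 34.3 in high_to_high and 34.8 to 42.6 in low_to_high libraries. Regions near Cd4 were called in all 5 as well, at 18.0 to 25.1, so these calls do not separate CD8 from CD4 T cells. None of the 5 had a region assigned to the B cell genes Cd79a and Ms4a1, the myeloid genes Adgre1 and Csf1r, or the erythroid genes Hba-a1, Hbb-bs, Hbb-bt and Alas2.

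No region differed between the groups past the threshold. In bulk libraries, fewer cells with an open region and less opening per cell cannot be told apart. Of 69758 regions called in at least 1 of the 5 libraries, 36354 were called in all 5, and the 34383 called in all 8 day 9 libraries were tested. Limma's test gave 0 regions (0.0%) at a Benjamini-Hochberg adjusted p under 0.05, and the lowest adjusted p was 0.246. At an unadjusted p under 0.05 there were 907 regions (2.64%) with higher and 842 (2.45%) with lower values in low_to_high libraries, together 5.09% of those tested. With voom weights in limma, 0 regions were called, and 2091 had an unadjusted p under 0.05. The count of 0 did not hold in every model. With the replicate number as a block limma called 4 regions, and 18 of 28 alternative fits called 0, as described in the last section. The groups did not overlap in 3220 regions (9.37%) that were higher and 3140 (9.13%) that were lower in all 3 low_to_high libraries.

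The intervals bound how large an undetected difference could be at single tested regions. For 34296 of the 34383 regions (99.7%), the 95% confidence interval of the fold change excluded a 2-fold difference in either direction, and for 27675 (80.5%) it excluded a 1.5-fold difference. The intervals are per region and are not adjusted for their number. The fold changes (log2, low_to_high against high_to_high) ran from -1.07 to 0.69, with the 5th percentile at -0.30 and the 95th at 0.28, and their median standard error was 0.16. Estimates beyond 1.5-fold were more often on the lower side, with 69 regions lower and 17 higher in low_to_high libraries. Of the 87 regions whose interval did not exclude a 2-fold difference, 74 reached it on the lower and 13 on the higher side. These 87 were weak regions, with a median mean value of 9.01 tags per 10 M against 18.4 over all tested regions.

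**Figure D1:**
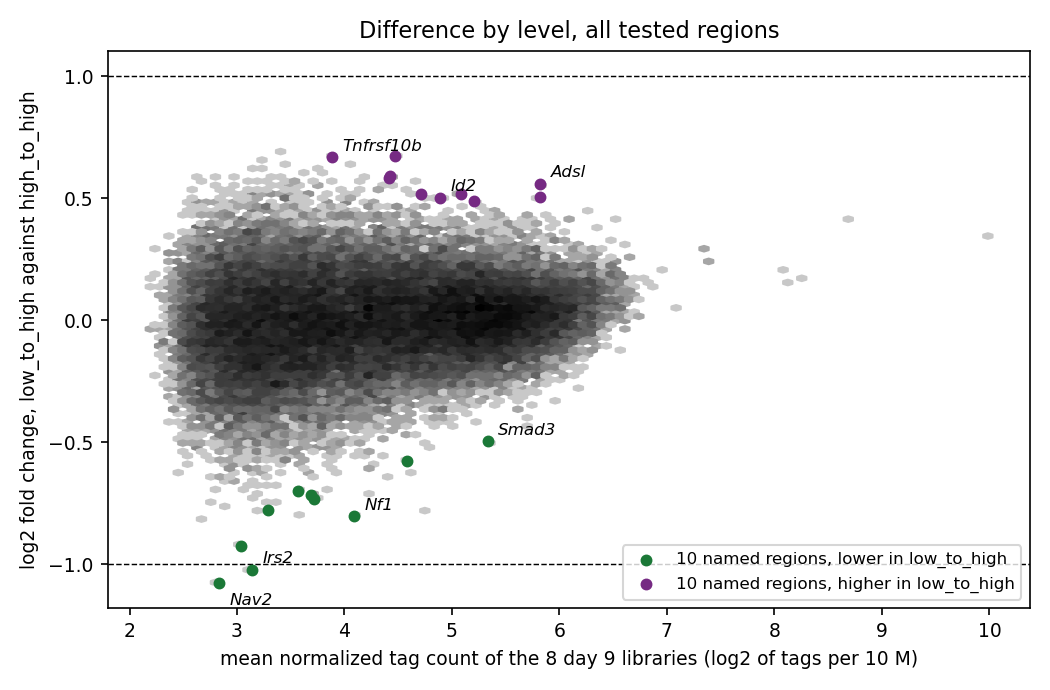
Log2 fold change of low_to_high against high_to_high libraries (vertical axis) against the mean normalized tag count of the 8 day 9 libraries (log2, horizontal axis) for all 34383 tested regions. Darker shading means more regions on a log scale, coloured points are the 20 named regions, and the dashed lines mark a 2-fold difference; the estimates run from -1.07 to 0.69 and narrow towards strong regions.

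Over the tested regions, the likeness in value between high_to_high and low_to_high libraries lay in the range of that within these 2 groups. The centred log2 values of the 6 pairs of a high_to_high with a low_to_high library correlated at 0.955 to 0.965 over the tested regions. The 2 high_to_high libraries correlated at 0.954, and the 3 pairs of low_to_high libraries at 0.957 to 0.968. Low_to_low libraries correlated at 0.949 to 0.961 with high_to_high, at 0.954 to 0.977 with low_to_high and at 0.963 to 0.970 with each other. The SD of the difference between 2 libraries was 0.26 to 0.29 on the log2 scale between the groups, 0.29 within high_to_high and 0.25 to 0.29 within low_to_high. These are descriptions over regions that all 8 lists share, and the pairs share libraries. Calls over all regions were compared as well, as the fraction called in both libraries among regions called in either. It was 0.671 to 0.755 between high_to_high and low_to_high, 0.690 within high_to_high and 0.736 to 0.777 within low_to_high libraries. The part of depth in this fraction was not tested.

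The region with the lowest p lay in Irs2, the gene of insulin receptor substrate 2, an adaptor that couples insulin and growth factor receptors to PI3 kinase (chromosome 8, 10993873 to 10994131, mm10, inside the gene span). Its normalized tag count was 13.6 and 13.8 in the high_to_high libraries and 5.80, 7.77 and 7.20 in low_to_high replicates 1, 2 and 3. Both high_to_high libraries lay above all 3 low_to_high libraries, and the low_to_low libraries (6.39, 8.12 and 7.73) overlapped the latter. The values rest on about 35 and 83 tags in high_to_high and 24, 22 and 15 in low_to_high libraries. The log2 fold change was -1.02 ± 0.19 (SE), with a 95% interval of -1.41 to -0.63 and a limma adjusted p of 0.246. Without high_to_high replicate 2 it was -1.01 (limma adjusted p = 0.447). With the replicate number as a block in the model it was -1.08, and the limma adjusted p was 0.0216. The single naive and antigen-experienced libraries held 10.7 and 11.7, and the effector library 46.5.

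At the other Irs2 regions the groups overlapped. The promoter region (chromosome 8, 11008837 to 11009049) held 42.2 and 52.0 in high_to_high and 51.3, 50.7 and 43.2 in low_to_high libraries, a log2 fold change of -0.08 ± 0.12. A further region inside the gene (11007157 to 11007387) differed by -0.08 ± 0.14, and one 38403 bp outside it (10946009 to 10946278) by -0.16 ± 0.13. All 4 estimates were negative, and that of the first region was the largest in size.

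Nav2, which encodes the cytoskeleton-associated protein neuron navigator 2, held the largest estimate of all (chromosome 7, 49335151 to 49335371, inside the gene). The region held 11.2 and 12.6 in high_to_high and 5.30, 5.06 and 6.72 in low_to_high libraries, with 6.39, 4.42 and 5.37 in low_to_low libraries. The 2 groups compared did not overlap, whereas 2 of the 3 low_to_high values lay inside the range of the low_to_low values and replicate 3 just above it. The log2 fold change was -1.07 ± 0.22, with an interval of -1.51 to -0.64 and a limma adjusted p of 0.339. With the replicate number as a block it was -1.15, also with a limma adjusted p of 0.0216. About 29 and 76 tags stood behind the high_to_high values and 21, 14 and 14 behind the low_to_high values.

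The other 8 named regions with lower values in low_to_high libraries had log2 fold changes of -0.93 to -0.49 and limma adjusted p of 0.740 to 0.923. At Nf1, the gene of the Ras inhibitor neurofibromin, the values were 31.0 and 20.8 in high_to_high and 18.0, 15 and 13.7 in low_to_high libraries (chromosome 11, 79460859 to 79461105; -0.80 ± 0.18, and -0.53 without high_to_high replicate 1). At Smad3, which carries TGF-beta signals to the nucleus, they were 42.0 and 43.5 against 35, 34.3 and 29.3 (chromosome 9, 63706365 to 63706616; -0.49 ± 0.12). Smad3 and Susd1 were the exceptions to the position of the low_to_low libraries, whose mean lay nearer to low_to_high than to high_to_high in 8 of the 10. At Smad3 the low_to_low libraries held 42.0, 52.2 and 44.3 on the deposited scale. After centring all 3 lay below both high_to_high libraries and nearer to them than to the low_to_high mean. The remaining regions were assigned to Fbxl17 (an F-box protein), Naa30 (an N-terminal acetyltransferase), Itgb2l (an integrin beta chain), Stra6 (a retinol transporter) and Rnpepl1 (an aminopeptidase-like protein).

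**Figure D2:**
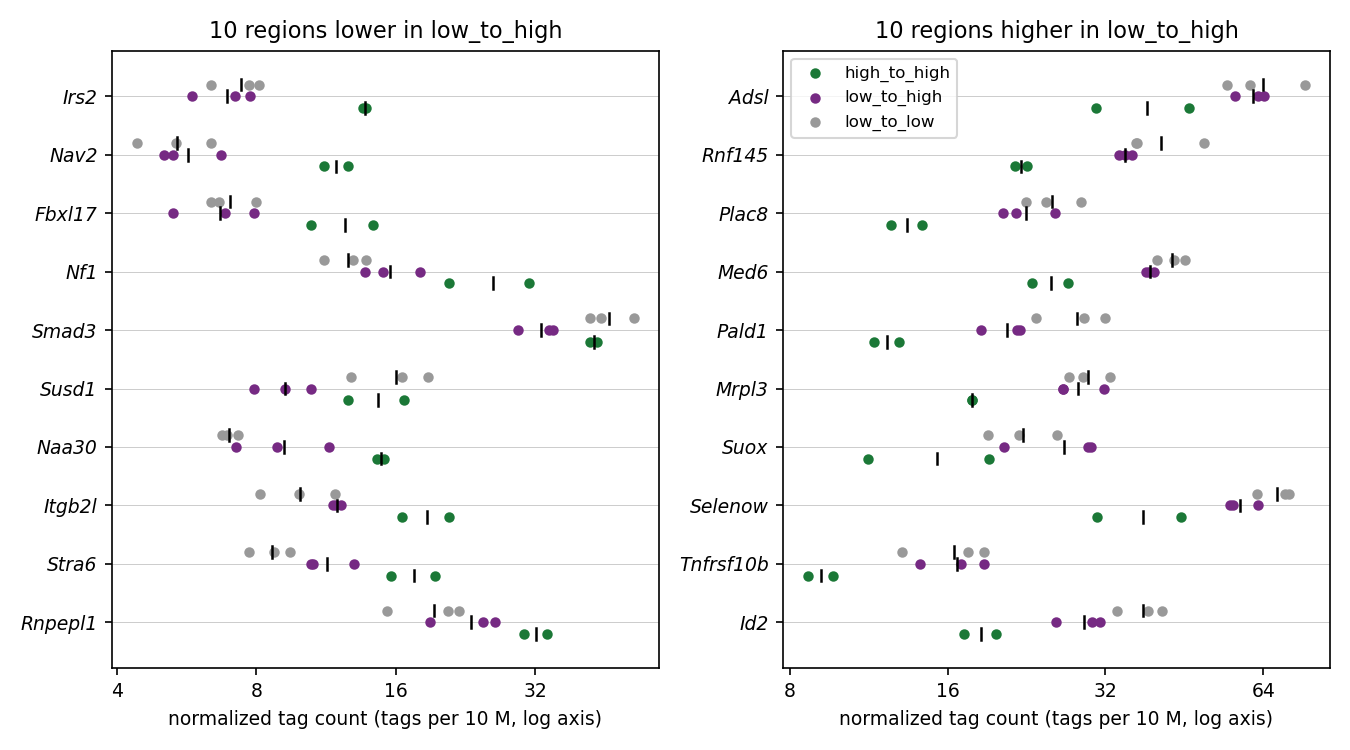
Normalized tag count (tags per 10 M, log axis) in each day 9 library for the 10 regions with the lowest p in each direction, named by their nearest gene. Points are libraries, black ticks are group means, and colours mark the groups. No high_to_high point overlaps the low_to_high points in any of the 20 regions, which were chosen by their p in this comparison. Over all tested regions, the groups did not overlap after centring in 9.37% on the higher and 9.13% on the lower side.

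Ranked by p, the first 10 regions with higher values in low_to_high libraries included 6 that lay at promoters, against 0 of the 10 lower ones and 19.998% of all tested regions. Promoter windows (250 bases before to 50 after the transcription start, RefSeq, GRCm38.p6) of the 4 with the lowest p at a promoter are shown, since the open region itself covers part of each. Sequences run 5′ to 3′ on the gene's strand, with the bases inside the region in capitals.
Adsl, chr15:80948240-80948539, plus strand: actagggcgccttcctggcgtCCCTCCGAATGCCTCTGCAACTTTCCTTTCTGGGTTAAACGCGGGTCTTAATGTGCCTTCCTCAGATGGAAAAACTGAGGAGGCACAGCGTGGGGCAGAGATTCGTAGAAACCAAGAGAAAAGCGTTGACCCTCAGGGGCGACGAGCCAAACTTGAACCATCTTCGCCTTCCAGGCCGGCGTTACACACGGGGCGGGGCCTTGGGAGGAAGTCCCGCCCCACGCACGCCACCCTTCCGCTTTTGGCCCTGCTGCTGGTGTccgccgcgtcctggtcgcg
Rnf145, chr11:44518706-44519005, plus strand: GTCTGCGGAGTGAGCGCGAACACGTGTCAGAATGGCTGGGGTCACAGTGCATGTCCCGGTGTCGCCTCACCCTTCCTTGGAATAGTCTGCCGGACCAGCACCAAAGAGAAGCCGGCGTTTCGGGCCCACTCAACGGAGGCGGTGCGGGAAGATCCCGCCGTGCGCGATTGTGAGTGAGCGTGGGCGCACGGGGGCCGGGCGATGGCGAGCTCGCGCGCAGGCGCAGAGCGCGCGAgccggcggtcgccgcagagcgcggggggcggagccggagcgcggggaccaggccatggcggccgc
Plac8, chr5:100572156-100572455, minus strand: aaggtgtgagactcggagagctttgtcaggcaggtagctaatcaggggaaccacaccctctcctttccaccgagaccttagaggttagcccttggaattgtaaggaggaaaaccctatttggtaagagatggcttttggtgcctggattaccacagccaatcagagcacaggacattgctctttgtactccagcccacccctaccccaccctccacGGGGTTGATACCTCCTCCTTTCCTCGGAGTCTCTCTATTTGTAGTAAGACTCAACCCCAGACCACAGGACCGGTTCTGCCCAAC
Med6, chr12:81594959-81595258, minus strand: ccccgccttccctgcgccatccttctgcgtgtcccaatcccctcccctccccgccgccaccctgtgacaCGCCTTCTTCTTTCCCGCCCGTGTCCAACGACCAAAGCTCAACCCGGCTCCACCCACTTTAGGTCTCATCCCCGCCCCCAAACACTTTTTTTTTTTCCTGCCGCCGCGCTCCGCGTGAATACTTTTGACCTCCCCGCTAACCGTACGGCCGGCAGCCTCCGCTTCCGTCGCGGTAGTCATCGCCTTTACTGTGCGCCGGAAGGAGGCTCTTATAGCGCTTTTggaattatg

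None of 8 motifs, chosen after the values were seen and searched on both strands, had a match in all 4 windows. The SP and KLF motif GGGCGG had 2 matches in the Adsl window, 1 in that of Rnf145, 2 in that of Med6 and 0 in that of Plac8. It stood in 46.2% of 21263 promoters of the same length and in 68.5% of the 6876 at tested promoter regions. The RUNX motif TGTGGT had 3 matches in the Plac8 window and 0 in the other 3, and stood in 14.97% of all promoters and 12.7% of those at tested regions. The ETS motif CCGGAAG had 1 match, in Med6, and stood in 11.6% of all promoters and 22.2% of those at tested regions. The motif CCAAT had 1 match each in Plac8 and Med6 (38.2 and 42.0%), and the STAT5 motif TTCNNNGAA 1 in Adsl (7.69 and 6.84%). The AP-1 motif TGANTCA, the TCF and LEF motif CTTTGAT and the NRF1 motif had 0 in the 4. Matches were counted over whole windows, also outside the open region. Both CCAAT matches, the GGGCGG match of Rnf145 and most TGTGGT matches of Plac8 lay outside it.

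Adsl encodes adenylosuccinate lyase, an enzyme of purine synthesis. Its region (chromosome 15, 80948261 to 80948520) held 46.1 and 30.7 in high_to_high and 56.4, 62.5 and 64.3 in low_to_high libraries. The groups did not overlap, but high_to_high replicate 2 lay well below replicate 1. The log2 fold change was 0.56 ± 0.13 (limma adjusted p = 0.923), and 0.27 without high_to_high replicate 2. Selenow, a selenoprotein gene, went from 0.51 to 0.25 and Suox, the sulfite oxidase gene, from 0.67 to 0.31 without it. Without high_to_high replicate 1, these 3 regions were among 11 that limma called, at 0.85, 0.76 and 1.03 in the same order.

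Other regions of this kind kept their size. Rnf145, the gene of a ubiquitin ligase of the endoplasmic reticulum, held 21.5 and 22.7 in high_to_high and 34.8, 34.0 and 36.0 in low_to_high libraries (chromosome 11, 44518608 to 44518940; 0.52 ± 0.13, and 0.55 without high_to_high replicate 2). Med6, which encodes a subunit of the Mediator complex, held 23.2 and 27.2 against 38.7, 38.3 and 39.6 (chromosome 12, 81594968 to 81595189; 0.49 ± 0.12, and 0.60 without that library). Plac8 held 14.3 and 12.5 against 21.6, 25.6 and 20.4 (chromosome 5, 100572000 to 100572239; 0.58 ± 0.15, and 0.49 without it). Each of these had a limma adjusted p of 0.923.

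Id2 encodes an inhibitor of E proteins that favours effector differentiation. A region 94331 bp from it (chromosome 12, 25190423 to 25190742) held 17.2 and 19.8 in high_to_high and 25.8, 31.2 and 30.2 in low_to_high libraries, and 33.6, 41.0 and 38.5 in low_to_low libraries. The low_to_high values lay between those of the other groups without overlap. The log2 fold change against high_to_high was 0.50 ± 0.13 (limma adjusted p = 0.923). The region was assigned to Id2 by distance alone. Of the other tested Id2 regions, the promoter was at -0.04 ± 0.12 and one 21788 bp away at -0.37 ± 0.20. Those 68711 and 93268 bp away were at 0.26 ± 0.17 and 0.11 ± 0.14. Tnfrsf10b, the mouse TRAIL death receptor gene, held 9.68 and 8.67 against 14.2, 18.8 and 17.0 (chromosome 14, 69780384 to 69780706; 0.67 ± 0.18, limma adjusted p = 0.923). The low_to_low mean was nearer to the low_to_high than to the high_to_high mean in 9 of these 10 regions. In both directions the low_to_low libraries took part in the estimate of the spread but not in the difference. The regions were chosen by their difference between the other groups, which can itself affect where the low_to_low mean lies. These counts are therefore descriptive, and no count over all tested regions stands beside them.

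Promoter regions made up 30.3% of the 907 regions higher at an unadjusted p under 0.05 and 10.9% of the 842 lower ones. They were 19.998% of all tested regions. Without high_to_high replicate 2 the shares were 29.2% of 1145 and 13.3% of 1211. The shift of a typical promoter was small, with a median log2 fold change of 0.03 over 6876 regions and of 0.0146 without high_to_high replicate 2. The median centred value of promoter regions was 1.00 and 1.03 in high_to_high and 1.10, 1.03 and 1.00 in low_to_high libraries, so the groups overlapped. Signal level moved along with this, since promoters are strong regions. The median log2 fold change by level went from -0.03 in the weakest 6877 regions to 0.03 in the strongest 6876. Without high_to_high replicate 2 these were -0.05 and -0.0069. With all libraries, 3.50% of the strongest 6876 were higher and 0.756% lower at an unadjusted p under 0.05. Of the weakest 6877, 1.31% were higher and 3.33% lower. The part of signal level in the promoter shares was not tested.

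Regions were then divided by the reference libraries, which the contrast does not use. The 1907 regions called in effector but not in naive cells had a median difference of -0.03 (log2), and the 6795 called in naive but not in effector cells one of -0.01. The 24009 called in both had a median of 0.01 and the 1672 called in neither one of -0.03. Without high_to_high replicate 2, the medians of the effector, the naive and the last class were -0.05, -0.0269 and -0.0495, and that of regions called in both was -0.00017. For effector regions the median centred value was -0.61 in both high_to_high libraries and -0.78, -0.64 and -0.57 in the low_to_high libraries, which lay on either side. For naive regions it was -0.23 and -0.24 in high_to_high and -0.26, -0.27 and -0.27 in low_to_high libraries. These did not overlap, and the groups lay within 0.05 of each other.

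**Figure D3:**
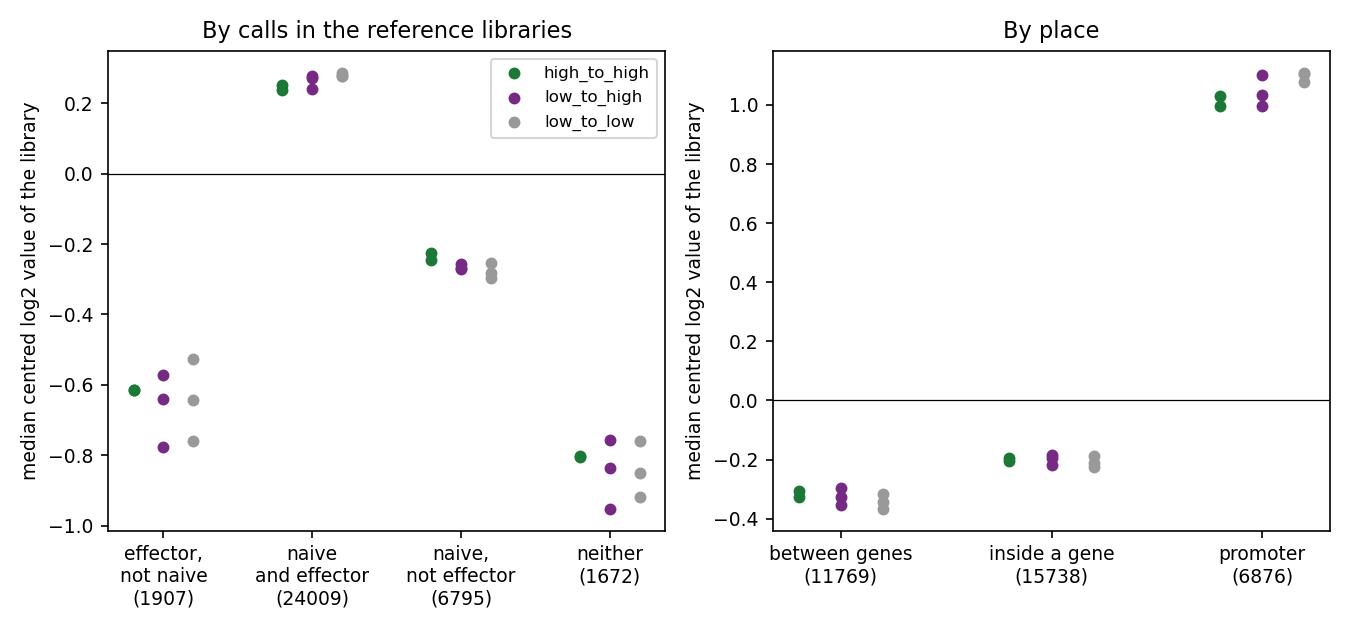
Median centred log2 value of each day 9 library over regions divided by calls in the naive and effector libraries (left) and by place (right), with the number of regions in parentheses. Each point is 1 library. The green and purple points overlap in every class shown except the regions called in naive but not in effector cells, where they lie within 0.05 of each other.

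None of the 10 gene lists had a region past limma's threshold, and list medians lay between -0.03 and 0.02, against 0.01 over all tested regions. Of all tested regions, 2.64% were higher and 2.45% lower at an unadjusted p under 0.05, and the shares of the 10 lists ran from 1.16 to 5.0% and from 0 to 5.93%. For each list, the region with the lowest p in each direction is named. Among 173 regions of 24 naive and memory genes, 2 were higher and 5 lower at an unadjusted p under 0.05. A region near Il6ra, the interleukin-6 receptor gene, held 36.2 and 32.4 in high_to_high and 31.2, 30.7 and 22.8 in low_to_high libraries (chromosome 3, 89864157 to 89864373; -0.40 ± 0.14). One near Myb, a factor of stem-like T cells, held 6.2 and 6 against 8.88, 9.93 and 9.12 (chromosome 10, 21204682 to 21205088; 0.42 ± 0.19).

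Effector genes had 3 regions higher (2.54%) and 7 lower (5.93%) of 118 at that level. A region in Zeb2, a factor of terminal effector cells, held 22.5 and 16.9 in high_to_high and 14.3, 17.0 and 12.7 in low_to_high libraries (chromosome 2, 45017270 to 45017504; -0.52 ± 0.18, and -0.32 without high_to_high replicate 1). Before centring, low_to_high replicate 2 lay just above high_to_high replicate 2 there. Of 55 regions of inhibitory receptor and exhaustion genes, 2 were higher and 2 lower. The region with the lowest p lay near Tox, a factor of exhausted T cells, with 11 and 11.2 against 6.78, 7.04 and 7.44 (chromosome 4, 6675077 to 6675342; -0.70 ± 0.20, limma adjusted p = 0.923). All 3 low_to_high libraries were lower there, as were the low_to_low libraries at 8.73, 7.64 and 6.66.

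Signalling lists had few regions at that level. Of 82 regions of interleukin-2 signalling and activation genes, 2 were higher and 1 lower, with Icos, a costimulatory receptor gene, at 6.78 and 8.50 against 11.5, 14.1 and 11.8 (chromosome 1, 61055131 to 61055430; 0.52 ± 0.19). The 115 regions of insulin, PI3K, mTOR and FOXO genes had 3 higher and 3 lower, and a median of 0.02, so that Irs2 stood at one end of a list centred near 0. At its other end was the promoter of Pik3r1, a regulatory subunit of PI3 kinase (0.45 ± 0.15), where the groups overlapped after centring. Its value was 0.0881 without high_to_high replicate 2, and 0.82 with a limma adjusted p of 0.0294 without replicate 1. Of 154 regions of T cell receptor signalling genes, 6 were higher and 4 lower. Those of 80 AP-1 regions were 4 and 1, with Fosl2 at 0.33 ± 0.12 and a region near Jun at -0.49 ± 0.19 (-0.32 without high_to_high replicate 2).

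Glycolysis genes had 1 region higher and 3 lower of 67, DNA methylation and chromatin genes 1 and 0 of 80, and T cell identity genes 2 and 1 of 76. The promoter of Dot1l, a histone methyltransferase gene, held 28.9 and 38.2 against 52.4, 50 and 40.6 (0.38 ± 0.13, 0.57 without high_to_high replicate 2 and 0.18 without replicate 1). In the identity list, a region in Ets1 was at -0.51 ± 0.18 and one near Gata3 at 0.49 ± 0.17. The remaining regions named by this choice had estimates of 0.29 (Entpd1), 0.40 (Ubash3a) and 0.27 (Pfkfb3) on the higher side. On the lower side they were -0.31 (Il2ra), -0.46 (Nfkb1), -0.34 (Hif1a) and -0.23 (Dnmt1). Every region named from a list had a limma adjusted p of at least 0.923, Irs2 excepted. The marker lists of other cell types also had 0 calls, in 14 regions of CD4 and regulatory T cell, 15 of B cell, 10 of myeloid, 15 of natural killer cell and 2 of erythroid genes. The summed value of the B cell regions was 191 and 223 in high_to_high and 215 to 231 in low_to_high libraries, over 19 and 28 regions called in the former and 20 to 23 in the latter.

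**Figure D4:**
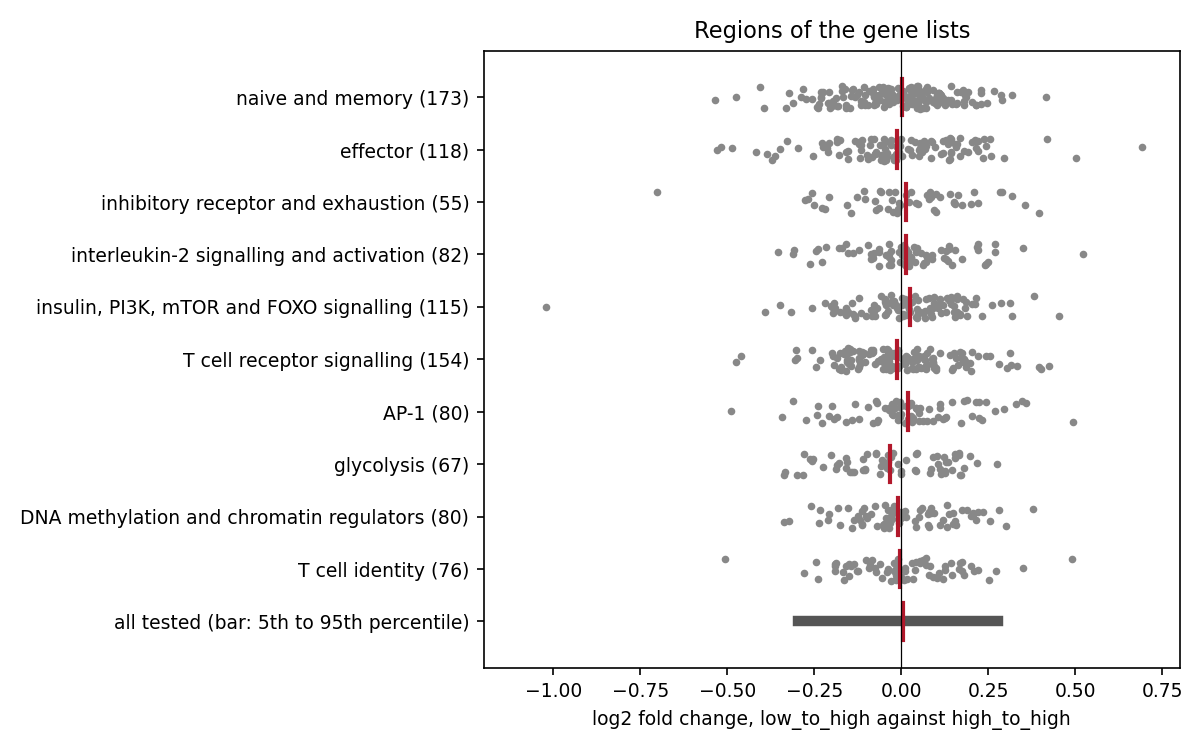
Log2 fold change (low_to_high against high_to_high, horizontal axis) of each tested region of the 10 gene lists, with the number of regions in parentheses. Grey points are regions, red ticks are medians, and the dark bar is the range from the 5th to the 95th percentile of all tested regions; every list median lies between -0.03 and 0.02.

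At Tcf7 itself the groups overlapped. Of 10 regions assigned to it in the 5 libraries, 4 were tested, with log2 fold changes of -0.16 to 0.09, or -0.35 to 0.05 without high_to_high replicate 2. The region inside the gene (chromosome 11, 52265656 to 52265891) held 64.9 and 49.8 in high_to_high and 54.6, 61.2 and 50.9 in low_to_high libraries (-0.16 ± 0.12, interval -0.40 to 0.09, -0.35 without high_to_high replicate 2 and 0.0295 without replicate 1). A region 26129 bp from the gene (52309512 to 52309740) was called in all 5, at 21.5 and 19.3 against 28.6, 24.7 and 21.1, and was not tested because 1 low_to_low library lacked it. One inside the gene (52274027 to 52274269) was called in both high_to_high libraries, at 23.4 and 16.2, and only in replicate 3 of low_to_high, at 14.6.

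Averaging over the tested regions of a gene gave the same count. Of 4332 genes with at least 3 tested regions, limma called 0 (0.0%), with the lowest adjusted p at 0.176. At an unadjusted p under 0.05, 105 (2.42%) were higher and 121 (2.79%) lower. The lowest p values were those of Ifitm3, an interferon-induced antiviral membrane protein gene, and Tnfrsf10b. The 3 Ifitm3 regions had centred means of -0.09 and -0.02 in high_to_high and 0.22, 0.39 and 0.41 in low_to_high libraries, a difference of 0.40 ± 0.08 (SE; limma adjusted p = 0.176). Ifitm3 lies among related Ifitm genes, and its regions were assigned by distance alone. For the 3 Tnfrsf10b regions the means were 0.05 and -0.08 against 0.36, 0.48 and 0.41, a difference of 0.43 ± 0.09 (limma adjusted p = 0.176). Plac8 (0.31), Zbtb8a (0.29) and Zfp654 (0.27) followed.

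Irs2 led the genes with lower values, at 0.80 and 0.70 against 0.39, 0.45 and 0.41 over 4 regions (-0.33 ± 0.08, limma adjusted p = 0.364). Among regions with a mean value of at least 10 alone, which leaves out the weak region described above, it was -0.12 (limma adjusted p = 0.992). Sestd1 (-0.44), Pdhx (-0.35), which encodes a component of the pyruvate dehydrogenase complex, St6galnac2 (-0.35), a sialyltransferase gene, and Sox6 (-0.34) followed with a limma adjusted p of 0.566.

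The lists of called peaks also differed, and the counts changed with the libraries left out. Of the 69758 regions called in at least 1 of the 5 libraries, 1247 were called in both high_to_high and no low_to_high library. In all 3 low_to_high and no high_to_high library, 117 were called. The requirement is unequal, 2 libraries against 3, and high_to_high replicate 2 is the deepest. Without that library the counts were 2747 and 1943, and without high_to_high replicate 1 they were 9381 and 395. Each of these omissions also lowers the high_to_high requirement to 1 library, and the part of depth was not tested. For a pair of like depth, high_to_high replicate 1 and low_to_high replicate 2, 41655 regions were shared, 6294 were only in the former (13.1% of its list) and 7237 only in the latter (14.8%). The 1247 regions were weak, with a median value of 5.59 tags per 10 M, and 37.4% of them were under 5-fold over the surrounding signal, near the caller's limit of 4-fold, against 2.64% of the 36354 regions called in all 5. Of the 117, 50.4% were under 5-fold.

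Of the 1247 regions, 913 had no peak of the other group within 500 bp, and of the 117, 62 had none. The strongest regions differed from this. Of the 8 with the highest mean on each side, 7 of the high_to_high and 8 of the low_to_high regions had one within 500 bp. At Sp1, the gene of a GC-box binding factor, a region held 95.5 and 77.2 in high_to_high libraries only (chromosome 15, 102405683 to 102405939), and the adjoining one held 103, 111 and 93.3 in low_to_high libraries only (102405979 to 102406171). The exception was the promoter of Per1, a circadian clock gene, at 65.1 and 58.4 in high_to_high libraries (chromosome 11, 69098707 to 69098918). Its fold over the surrounding signal was 4.18 and 4.15 there, near the limit of 4, and low_to_low replicate 3 called it too, at 79.7.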

How the data were processed

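The authors' deposited peak lists, 1 per library and not pooled, come from findPeaks of HOMER 4.10, whose headers state a cutoff of 0.001 on the false discovery rate and of 4-fold over the 10 kb around a peak, per the file headers. The submitters' processing notes also name Bowtie2, DESeq2 and mm10. The deposited signal is the normalized tag count, tags per 10 M, and the deposited ratio is each peak's fold over local signal, per the file headers. Regions below a list's limit are missing, not known to be closed.

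Peaks overlapping by at least 1 bp (19 autosomes and X) were merged into 111041 regions, each with the strongest peak's value and the nearest protein-coding gene span within 100 kb (96.3% of tested regions). Values were log2(value + 1), a scale that understates changes of low values, centred on each library's median over regions called in all 8 day 9 libraries. Under R 4.3.3, limma 3.58.1 (lmFit and a trended eBayes) fitted 3 groups, whose low_to_low libraries share in the spread, with Benjamini-Hochberg adjustment. Depth was 20.8 to 59.97 M tags in the 5 libraries. The test was checked on simulated data.

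The text names the 10 regions with the lowest p each way (1 per gene), the lowest p each way in each gene list, Tcf7 regions, the 8 strongest regions called in 1 group only, and 5 genes each way. The comparison and lists were chosen with earlier results of these data known. The division by place and by signal level, the single pair of like depth, the 500 bp distance and the motifs were chosen after values were seen. Other normalizations, filters, pseudocounts, overlaps, weights, a covariate, a replicate block and omissions were tried.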

Additional observations from a re-analysis of the deposited data

How the results depend on the processing

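The 28 alternative fits gave 0 called regions in 18 and 0 called genes in 25. Without centring, where the median region shifted by 0.13, limma called 1 region, 2 genes (Ifitm3 and Tnfrsf10b) and, before adjustment, 3024 regions with p under 0.05, of which 2906 were higher and 118 lower. The class medians were then 0.10 (effector, not naive), 0.13 (both), 0.11 (naive, not effector) and 0.0948 (neither). With only peaks at least 5-fold over local signal 1 gene was called, Irs2 (-0.42), which was at -0.12 with regions of a mean of at least 10, and with the sum of peaks 3 regions (Zhx2, Gtpbp8 and Ogfod2), where a high_to_high library held more peaks than each low_to_high library. Leaving out 1 library gave 0 to 11 regions, all 11 of them higher and without high_to_high replicate 1, which leaves a lone library assumed to vary like the other groups. The other omissions gave 0.

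The replicate number as a block gave 4 regions, all lower: Irs2 (-1.08), Nav2 (-1.15), the Cd80 promoter (-1.04) and chromosome 10, 124138544 to 124138753 (-0.93). Same-numbered high_to_high and low_to_high libraries deviated from their group means with correlations of -0.02 and -0.0012, over 2 shared numbers. The 2 high_to_high libraries deviate from their mean by equal and opposite amounts, so these values cannot decide whether the groups are paired. Same-numbered low_to_low and low_to_high libraries, which share in the spread, correlated at 0.298, 0.136 and 0.161. These correlations were read with the block's calls already known. Further block fits, chosen after seeing the data, gave 5 regions and 5 genes with only the 5 YFP-high libraries and 3 regions with cyclic loess. Leaving out 1 library under the block gave 0 to 151 regions, the highest without high_to_high replicate 1 (127 higher, 24 lower), then 7, 2 and 1 without high_to_high replicate 2, low_to_high replicate 1 and low_to_high replicate 2.

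Over all omissions, with and without the block, intervals excluded a 1.5-fold difference in 50.2 to 80.6% of regions (51.3% in the block fit without high_to_high replicate 2). The medians ran from -0.14 to 0.02 for effector, not naive regions and from -0.0269 to 0.0013 for naive, not effector regions (-0.0204 in the block fit without low_to_high replicate 2). Regions called in high_to_high only numbered 1900 to 9381 and in low_to_high only 266 to 1943. Of the 1247 and 117 regions of the main comparison, 913 and 62 had no peak of the other group within 500 bp.

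All 20 regions with the lowest p kept their direction in each fit that held them, 27 or 28 of the 28. They were chosen by their p in these data, and the groups did not overlap after centring in any of the 20. Leaving out 1 library without the block could therefore not change their direction. Of the 54 named regions, 6 changed direction somewhere, none of them called. Without high_to_high replicate 2, Klf1 gave -0.0115 (-0.0111 with the block), Tcf7 at 52314130 gave -0.12 (-0.0686 with the block) and Itgam at 128062534 gave 0.0256 with the block. Over the omissions without the block Klf1 reached 0.26 and Tcf7 at 52314130 reached 0.25. Without high_to_high replicate 1, Tcf7 at 52265656 gave 0.0295 (0.0712 with the block), against -0.35 at its lowest omission without the block, and Il10 gave -0.0451 with the block. Tcf7 at 52318527 gave 0.0859 without centring, -0.0562 at its lowest omission without the block and -0.0718 with it, and 0.0034 without low_to_high replicate 3, with and without the block, and in the block fit of 5 libraries. Tcf7 at 52314130 gave -0.0121 in the block fit without low_to_high replicate 2. Weak regions and the 2 high_to_high libraries limit what could be detected.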
